A study of Drosophila melanogaster with 37 samples.

Results

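The data described here were the 6 female and 6 male polyadenylated RNA libraries of a Drosophila melanogaster series of 37 samples. Female heads, bodies and ovaries and male heads, bodies and testes were each sequenced as 2 replicates. Libraries were paired by tissue and replicate number, with ovary set against testis, which gave 6 pairs, and a gene was taken as shared when the female library was higher in all 6 pairs or the male library was higher in all 6. Of 17559 genes listed, 12882 had a mean level of at least 1 TPM (a transcript level corrected for length and scaled to the same total in each library) over the 12 libraries, and 2419 of these had the same direction in all 6 pairs. All flies were of an isogenic Canton-S strain with no other allele or treatment, and were dissected about a day after eclosion. The testis samples held the whole inner male reproductive system, with seminal vesicle, accessory gland and ejaculatory duct. Nothing states that replicates came from separate groups of flies, so p-values measure only the spread between these libraries, which may be technical. In such bulk samples, fewer cells of a type and less RNA per cell cannot be told apart.

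In Drosophila the ratio of X chromosomes to autosomes decides whether the splicing factor Sex-lethal (Sxl) is made. Sxl is active in females, where it turns on transformer (tra) splicing and blocks translation of male-specific lethal 2 (msl-2). The tra product in turn directs the female splice form of doublesex (dsx), whose female protein activates the yolk protein genes. Males make MSL2 and with it the dosage compensation complex, a protein assembly that carries the roX RNAs and raises transcription from the single male X chromosome. Much sex-biased expression in the adult fly lies in the gonads, and the genes described here are those whose direction was the same in head, body and reproductive tract.

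The sequences that carry the clearest results are given first. Yp1, Yp2 and Yp3 encode the yolk proteins and all lie on the X chromosome. Yp2 and Yp1 point away from each other across a spacer of 1174 bases. That spacer held the letters ACAATGT 1 time over both strands, within the 300 bases before the start of Yp1 (dm6, chrX:10053511-10053810, plus strand). These letters are 1 form of the core of the sequence bound by the Doublesex protein. The capitals mark that match, and other forms of the core were neither searched for nor marked.
Yp1 upstream: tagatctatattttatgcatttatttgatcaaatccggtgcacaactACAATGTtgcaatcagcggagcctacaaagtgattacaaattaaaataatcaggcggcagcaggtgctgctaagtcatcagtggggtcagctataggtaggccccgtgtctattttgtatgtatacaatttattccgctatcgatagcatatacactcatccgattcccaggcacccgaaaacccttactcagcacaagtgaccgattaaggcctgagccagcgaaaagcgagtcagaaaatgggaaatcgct
The same letters stood in 5.10% of the 12826 upstream windows of this length that could be read for the genes tested, in 5.04% of those of the genes higher in females in all 6 pairs and in 4.27% of those of the genes higher in males. The upstream windows of Yp2 and Yp3 had no match, which says only that these letters are not in those 300 bases.

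The 2 roX RNAs share a short element, the roX box, written GTTNTACG in DNA letters, that is known to be needed for its function. On the gene's own strand, roX1 (chrX:3857230-3862697) held 3 copies and roX2 (chrX:11579065-11580432) held 2 copies, shown here in capitals with the bases between them and 10 on either side (dm6, chrX:3858905-3859050, minus strand, and chrX:11580069-11580161, plus strand).
roX1 boxes: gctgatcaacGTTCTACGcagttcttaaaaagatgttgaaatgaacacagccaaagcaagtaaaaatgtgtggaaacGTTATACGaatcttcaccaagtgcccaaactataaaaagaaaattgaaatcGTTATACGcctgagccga
roX2 boxes: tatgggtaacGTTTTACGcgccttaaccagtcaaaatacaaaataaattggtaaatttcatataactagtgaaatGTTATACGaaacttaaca
Among the 12826 gene spans searched, 15.43% held at least 1 copy and 0.18% held 2 copies that started within 150 bases of each other.

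Most genes did not keep 1 direction across tissues. The female library was higher in all 6 pairs for 380 genes, 2.95% of those tested, and the male library was higher in all 6 for 2039 genes, 15.8%. The most frequent pattern was a female level that was higher in exactly 4 pairs, seen for 4243 genes. Of all tested genes, 3885 were higher in females in the 4 body and gonad pairs and higher in males in both head pairs, and 797 had the opposite arrangement. Where a gene missed the shared set by 1 pair, a head pair was usually the one that differed. This was so for 1027 of the 1177 genes higher in females in 5 pairs.

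**Figure D1:**
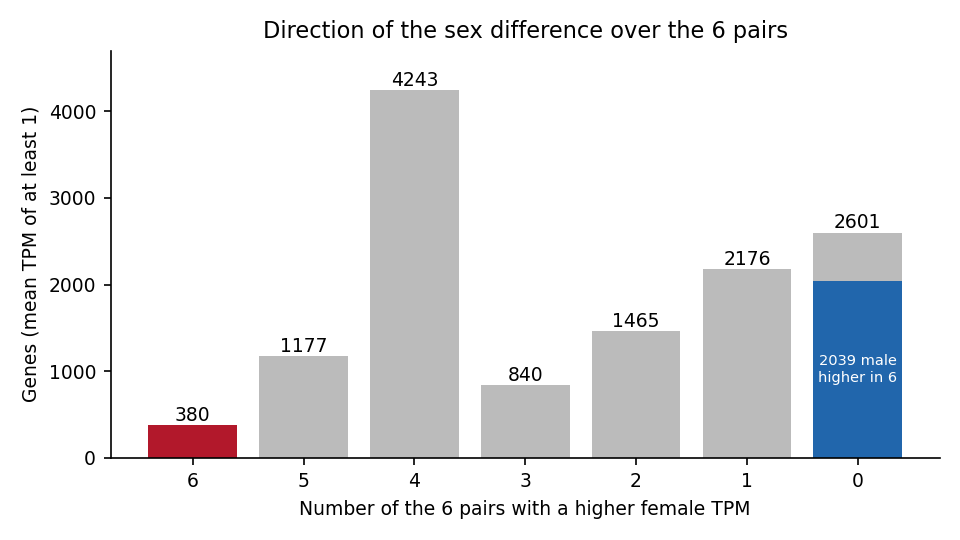
Number of genes (vertical axis) by how many of the 6 pairs had the higher TPM in the female library (horizontal axis, from 6 at the left to 0 at the right), over the 12882 genes with a mean of at least 1 TPM. The 380 genes at 6 are red, the 2039 genes with a higher male TPM in all 6 pairs are blue, and the grey part above them is genes with a tie in at least 1 pair.

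The scale on which libraries are compared bears on these counts. In TPM, the transcripts of a library share a fixed total, and the mitochondrial transcripts held between 1.06% and 60.5% of it. A single mitochondrial gene, mt:ATPase8, held 15.7% to 57.6% in 8 libraries, whereas the replicate 2 libraries of bodies and gonads of both sexes list it at 0. The mitochondrial share averaged 30.7% ± 23.6 in females and 28.2% ± 24.5 in males (SD, n = 6 each), and the 6 pair differences did not pass an exact sign-flip test (p = 0.5, two-sided, adjusted over 3 such tests). Within pairs the median gene differed by -0.11 and -0.13 on the log2 scale in the head pairs, so that a small shift of the whole table decides the direction of many genes there. When TPM was rescaled without mitochondrial genes, 657 genes were higher in females and 1746 in males in all 6 pairs. With FPKM the counts were 1050 and 1592, with median-of-ratios scaling 708 and 2047, and with quantile normalization 1711 and 787. The share of genes higher in females among those shared was 15.7% in TPM, 27.3% without mitochondrial genes, 39.7% in FPKM, 25.7% with median of ratios and 68.5% with quantile normalization. Median-of-ratios scaling lowered female against male levels by 0.89 to 1.51 in the body and gonad pairs and raised them by 0.15 and 0.20 in the head pairs (log2). Directions were therefore also counted where they held in all 6 pairs under each of the 5 scalings, a criterion chosen after the values were seen. It left 188 genes higher in females (1.46% of those tested) and 708 higher in males (5.5%).

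The yolk protein genes were higher in every female library than in any male library. In a limma fit of log2(TPM + 1) with the pair as a block and 1 coefficient for sex, which treats unequal differences among tissues as error, 3 genes passed a Benjamini-Hochberg adjusted p of 0.05 as higher in females (0.0233% of those tested), and these were Yp1, Yp2 and Yp3. No gene passed as higher in males (0%). At an unadjusted p under 0.05 there were 7388 genes (57.4%), and 4840 genes had an adjusted p under 0.06, so that the count of calls sits close to the threshold. A fit with 1 mean for each sex and tissue, in place of the pair block, tested the average sex difference over the tissues. It does not count unequal tissue differences as error, and in it 3377 genes passed as higher in females and 3966 as higher in males. In the paired fit without head replicate 1 the counts were 3071 and 3576, and without head replicate 2 they were 3237 and 3612.

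Yp1 was at 3292 and 5425 TPM in female heads, 3117 and 7650 in female bodies and 3798 and 5822 in ovaries, against 33.9 and 24.4 TPM in male heads, 21.6 and 21.3 in male bodies and 18.7 and 6.10 in testes. The lowest female library was above the highest male library, and the levels of female heads, bodies and ovaries overlapped. The difference was 7.85 ± 0.41 (log2 female minus male, SE, adjusted p = 0.00222 in the limma paired fit). Yp2 was at 1639 and 4051 TPM in female heads, 2456 and 6569 in female bodies and 3499 and 6143 in ovaries, against 24.6 and 21.5 TPM in male heads, 15.2 and 20.6 in male bodies and 11.02 and 5.91 in testes. Its difference was 7.83 ± 0.46 (log2, SE, adjusted p = 0.00353 in the limma paired fit). Yp3, which lies 3704047 bases from Yp1, was at 1369 and 3654 TPM in female heads, 1043 and 2655 in female bodies and 1108 and 1623 in ovaries, against 19.3 and 25.0 TPM in male heads, 7.29 and 14.4 in male bodies and 8.27 and 6.25 in testes. Its difference was 7.06 ± 0.24 (log2, SE, adjusted p = 0.000268 in the limma paired fit). All 3 genes also passed in a fit with a separate sex coefficient for head, body and gonad, with adjusted p between 0.00294 and 0.0323 in heads, and the adjusted p of an F test that the 3 tissues differed in size was between 0.0768 and 0.336. Leaving out body replicate 2 removed the call of Yp2, and the fits without bodies or with 1 replicate number alone made no call.

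**Figure D2:**
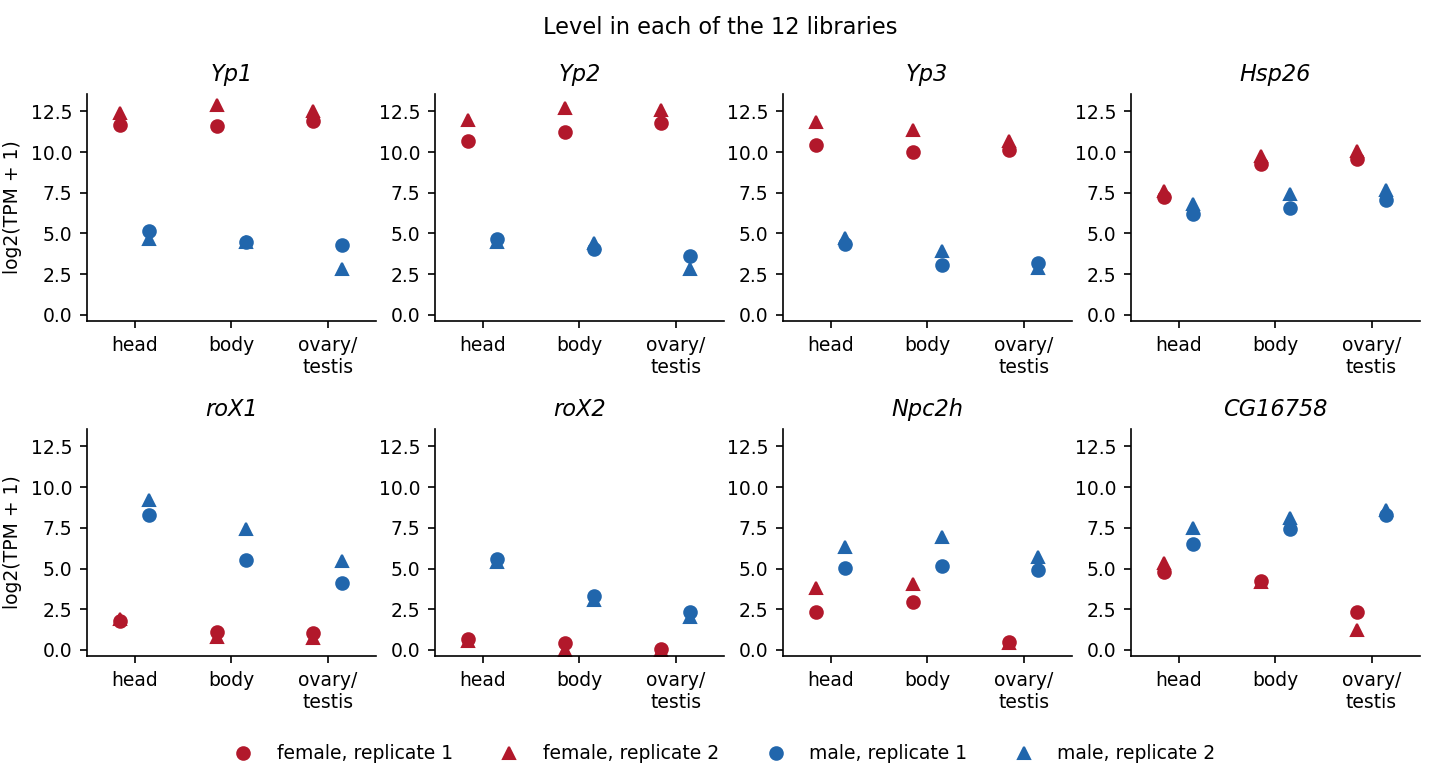
Level of 8 genes in each of the 12 libraries, as log2(TPM + 1) on the vertical axis, with female libraries in red at the left and male libraries in blue at the right of each tissue, circles for replicate 1 and triangles for replicate 2. The yolk protein genes were at 1043 TPM or more in all 6 female libraries and at 33.9 TPM or less in all 6 male libraries, and roX1 and roX2 had the opposite order.

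The low level of sex-limited transcripts in the other sex had a measured companion. The 18 eggshell genes, which are made in ovarian follicle cells, summed to 48.8 to 225 TPM in the male libraries, 0.0637% to 0.508% of the ovary library with the same replicate number. The summed yolk protein level of male libraries was 0.134% to 1.23% of that of their female partners. The 18 testis germline markers summed to 8.34 to 221 TPM in female libraries, 0.0451% to 1.09% of the same-numbered testis library, and the 16 accessory gland and ejaculatory duct markers to 0.0623% to 1.04%. These percentages were higher in replicate 1 than in replicate 2 of body and gonad. Their part in the low levels of yolk proteins in males or of roX RNAs in females was not tested, and the fold differences of such genes depend on those low levels.

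CR45601, a noncoding gene on the strand opposite to Yp1 and inside its span, followed Yp1. It was at 18.8 and 13.2 TPM in female heads, 14.0 and 37.1 in female bodies and 17.0 and 119 in ovaries, and was listed at 0 in all 6 male libraries. The libraries are not stated to be strand-specific, so that its reads cannot be told apart from those of Yp1. Its adjusted p was 0.0568 in the limma paired fit. It passed with a pseudocount of 0.1 (0.00403), in FPKM (0.0239), with median of ratios (0.00721), without mitochondrial genes (0.00813) and without gonad replicate 2 (0.0281, each a limma adjusted p).

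The RNAs of the dosage compensation complex were the clearest genes in the other direction. roX1 was at 2.43 and 2.75 TPM in female heads, 1.16 and 0.744 in female bodies and 1.05 and 0.676 in ovaries, against 313 and 589 TPM in male heads, 45.1 and 168 in male bodies and 16.6 and 43.0 in testes. The male level was thus highest in heads and lowest in testes, and no female library reached any male library. roX2 was at 0.588 and 0.432 TPM in female heads, 0.344 and 0 in female bodies and 0.0519 and 0 in ovaries, against 47.8 and 42.1 TPM in male heads, 9.06 and 7.36 in male bodies and 4.0 and 3.06 in testes. Both passed as higher in males in each tissue in the fit by tissue, roX1 at -6.91 ± 0.60, -5.51 ± 0.60 and -3.91 ± 0.60 and roX2 at -4.93 ± 0.18, -2.98 ± 0.18 and -2.14 ± 0.18 in head, body and gonad (log2 female minus male, SE, n = 2 pairs each, limma adjusted p between 5.57e-05 and 0.0375). The size differed between tissues for roX1 (adjusted p = 0.0473) and for roX2 (adjusted p = 0.00039, limma F test). For roX2 the female levels were near 0, so that its log2(TPM + 1) difference mostly follows the male level. As a share of the male level, female roX2 was at 1.23% and 1.03% in heads and 1.30% and 0% in gonads. For roX1 these shares were 0.777% and 0.466% in heads and 6.32% and 1.57% in gonads. In the paired fit the adjusted p of both was 0.0568, and both passed with a pseudocount of 0.1 (adjusted p = 0.0199 for roX1 and 0.0121 for roX2). roX1 overlaps the gene echinus (ec) on the other strand.

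The protein members of the complex did not share 1 direction. Of the 8 dosage compensation genes listed, 3 were shared by all 6 pairs, roX1, roX2 and msl-2, all higher in males, against 2.95% and 15.8% of all genes. msl-2, the subunit made in males alone, was at 5.54 and 10.1 TPM in female heads, 1.23 and 2.85 in female bodies and 1.62 and 3.33 in ovaries, against 9.78 and 18.0 TPM in male heads, 2.51 and 8.02 in male bodies and 2.43 and 5.64 in testes. The female library was lower in each pair by 0.39 to 1.23 (log2), the groups overlapped, and the difference did not pass the paired fit (adjusted p = 0.0568), and under quantile normalization it was 0.04. msl-1, the scaffold subunit, was at 3.52 and 6.70 TPM in female heads and 20.8 and 130 in ovaries, against 4.48 and 9.80 TPM in male heads and 1.52 and 5.25 in testes, so that its direction differed between heads and gonads. It passed as higher in females in body and gonad (log2 2.77 and 3.75), and the sex difference was unequal among tissues (adjusted p = 0.000853, limma F test). By tissue, 0, 4 and 5 of the 8 genes passed as higher in females in head, body and gonad, and 2, 3 and 2 as higher in males, beside 0.0388%, 37.7% and 42.8% of all genes for females and 0.0388%, 33.9% and 36.3% for males.

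Among the 10 sex determination genes, tra was the only one higher in females in all 6 pairs and dsx the only one higher in males, beside 2.95% and 15.8% of all genes, and none passed the paired fit. tra was at 12.2 and 17.4 TPM in female heads, 15.2 and 22.6 in female bodies and 20.6 and 27.6 in ovaries, against 10.1 and 14.0 TPM in male heads, 3.32 and 7.85 in male bodies and 5.27 and 5.13 in testes. Its direction held under each scaling, and it passed as higher in females in body (1.66 ± 0.20) and gonad (2.0 ± 0.20) but not in head (0.28 ± 0.20, log2 female minus male, SE, n = 2 pairs each, limma adjusted p = 0.000498, 0.000138 and 0.895). dsx, which is read through sex-specific splice forms that a gene total does not separate, was at 7.43 and 12.1 TPM in female heads, 7.18 and 12.6 in female bodies and 1.68 and 1.59 in ovaries, against 9.80 and 15.1 TPM in male heads, 10.9 and 29.6 in male bodies and 1.83 and 5.38 in testes. The male library was higher in each pair, by 0.08 to 1.30 (log2), but this direction did not hold under each scaling, and dsx passed in no tissue. Sxl itself was not shared. It was at 60.1 and 115 TPM in female heads, 40.1 and 151 in female bodies and 61.0 and 209 in ovaries, against 69.6 and 117 TPM in male heads, 14.6 and 36.4 in male bodies and 6.82 and 15.6 in testes. Female and male heads were thus within 0.21 of each other (log2), while bodies and gonads differed. For Sxl and tra too, a gene total does not separate sex-specific splice forms, so these values do not measure female-spliced RNA. fru, whose male splice forms direct courtship, was at 29.0 and 41.4 TPM in female heads and 2.36 and 4.02 in ovaries, against 25.9 and 35.2 TPM in male heads and 9.21 and 14.9 in testes, and was not shared either.

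Few genes passed a test of the sex difference in heads, which does not show that the others were equal there. The fit by tissue takes the error of a gene from all tissues together, with the same SE in each. Npc2h at -2.61 ± 0.27 (adjusted p = 0.0673) and Obp99a at 3.51 ± 0.33 (adjusted p = 0.0556) did not pass in heads (log2 female minus male, SE, n = 2 pairs, limma fit by tissue). Both head pairs differed by at least 1 (log2) for 8 of the 380 genes and 30 of the 2039 genes with 1 direction in all 6 pairs. In the fit by tissue, 5 genes passed as higher in females in heads (0.0388% of those tested) and 5 as higher in males (0.0388%), against 4852 (37.7%) and 4370 (33.9%) in bodies and 5509 (42.8%) and 4678 (36.3%) in gonads. An F test that the sex difference was equal in head, body and gonad passed for 9411 genes (73.1%). Passing in all 3 tissues in 1 direction were Yp1, Yp2 and Yp3 as higher in females (0.0233%) and roX1, roX2 and CG45083 as higher in males (0.0233%). CG45083 was listed at 0 in both female heads and both ovaries and was at 0.107 and 1.07 TPM in female bodies, against 24.3 and 19.9 TPM in male heads, 2.38 and 7.61 in male bodies and 0.724 and 0.783 in testes. It has the same strand, start and end in these tables as Fatp, a fatty acid transport protein gene, so that how reads were divided between them affects its values.

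The other genes that passed in heads did not pass in all 3 tissues. fit, a female-biased gene of the head fat body that acts in feeding, was at 112 and 263 TPM in female heads and 44.2 and 44.4 in female bodies, against 17.4 and 32.6 TPM in male heads and 11.2 and 20.3 in male bodies, with 0.340 and 0.207 in ovaries against 0.444 and 0.139 TPM in testes. Cyp4d21, a cytochrome P450 of male fat body, was at 2.52 and 4.26 TPM in female heads and 0.190 and 0.154 in female bodies, against 67.1 and 88 TPM in male heads and 5.03 and 8.43 in male bodies. It was also lower in ovary than in testis in both pairs, at 0.0833 and 0 TPM in ovaries against 0.102 and 0.263 TPM in testes. The neighbouring records CG34164 and RpL7-like overlap on the same strand, so that their reads cannot be told apart. In heads CG34164 passed as higher in females and RpL7-like as higher in males. CG34164 was at 18.3 and 23.2 TPM in female heads and at 0.000748 TPM or less in the other 10 libraries. RpL7-like was listed at 0 in female heads, against 19.9 and 27.2 TPM in male heads. It was at 82.2 to 161 TPM in female bodies and ovaries, and at 14.2 to 28.6 TPM over the male libraries. How reads were divided between the records was not tested.

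**Figure D3:**
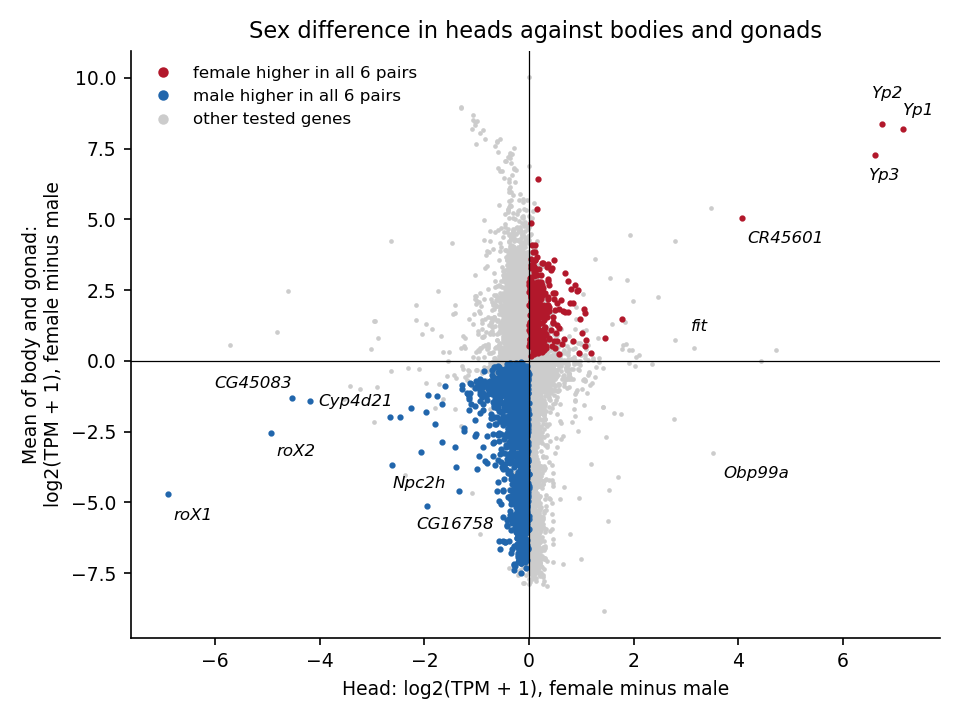
Each point is 1 of the 12882 genes tested, with the sex difference in heads on the horizontal axis and the mean of the sex differences in bodies and gonads on the vertical axis (both log2(TPM + 1), female minus male, from the fit by tissue). Genes higher in females in all 6 pairs are red, genes higher in males in all 6 pairs are blue, and the yolk protein genes and roX1 lie far from the band of genes with head differences near 0.

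Of the 7 head fat body genes with known sex bias, 4 were higher in males in all 6 pairs and none in females, beside 15.8% and 2.95% of all genes. The directions of sxe2 and Obp99b held under each scaling, and those of tobi and Cyp4d21 did not. sxe2, a lipase-like gene, was at 19.3 and 35.3 TPM in female heads, 0.553 and 0.874 in female bodies and 0.230 and 0.0684 in ovaries, against 96.9 and 171 TPM in male heads, 4.85 and 12.9 in male bodies and 1.03 and 1.45 in testes. tobi, a glucosidase-like target of insulin signalling, was at 12.9 and 18.9 TPM in female heads, 27.3 and 45.9 in female bodies and 0.702 and 0.387 in ovaries, against 48.3 and 80.1 TPM in male heads, 72.9 and 206 in male bodies and 1.14 and 1.67 in testes. Obp99b, an odorant-binding protein gene, differed less, by 0.15 to 1.96 (log2) in favour of males. Its relative Obp99a had the opposite direction in heads, with 13.3 and 16.2 TPM in female heads against 0.728 and 0.0916 TPM in male heads, and with 17.1 and 9.99 TPM in ovaries against 195 and 252 TPM in testes. takeout (to), also on this list, was higher in female heads, at 10.7 and 13.9 TPM against 3.93 and 5.06 TPM in male heads. Its head difference was 1.27 ± 0.23 (log2 female minus male, SE, n = 2 pairs) and did not pass (limma adjusted p = 0.392). The body pairs of takeout differed by 0.0015 and -0.75 (log2). It was listed at 0 in both ovaries, against 0.117 and 0 TPM in testes, and was not shared.

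The differences of most shared genes were small. Of the 380 genes higher in females in all 6 pairs, 54 differed by at least 0.25 (log2) in each pair, 17 by at least 0.5 and 4 by at least 1. Of the 2039 higher in males, 361, 56 and 12 did. In heads, both differences were below 0.25 for 232 of the 380 and for 881 of the 2039, and 510 of the 2039 were below 1 TPM in all 4 head libraries. The median differences of the 380 genes were 0.14, 1.19 and 2.04 in head, body and gonad, and those of the 2039 genes were -0.22, -0.95 and -1.64, beside -0.12, -0.01 and 0.07 for all tested genes (log2 female minus male). Of the 380 genes, 25 had all 6 female libraries above all 6 male libraries (0.194% of those tested), and 90 genes had all 6 male libraries above all 6 female libraries (0.699%).

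Since the paired fit called the yolk protein genes alone, the further genes below were ranked after their values were seen by the smallest of their 6 pair differences, and are described without a test. Among those higher in females, the first after Yp1, Yp3, Yp2 and CR45601 was rost (rolling stone), a membrane protein gene of myoblast fusion. It was at 5.23 and 9.35 TPM in female heads, 32.1 and 45.8 in female bodies and 44.8 and 59.6 in ovaries, against 2.39 and 4.15 TPM in male heads, 5.35 and 9.83 in male bodies and 4.44 and 10.2 in testes. Cht2, a chitinase gene, was at 12.3 and 17.1 TPM in female heads, 24.0 and 44.1 in female bodies and 33.9 and 57.0 in ovaries, against 5.78 and 9.52 TPM in male heads, 5.0 and 11.1 in male bodies and 2.46 and 4.39 in testes. Every female library was above every male library for Cht2, and for rost the female heads overlapped male bodies and testes. Plod, which encodes the lysyl hydroxylase that modifies collagen, was at 17.9 and 29.1 TPM in female heads, 35.7 and 59.2 in female bodies and 62.4 and 77.5 in ovaries, against 10.3 and 18.4 TPM in male heads, 6.14 and 13.1 in male bodies and 2.44 and 5.0 in testes. Lsp1alpha, a larval serum protein gene on the X chromosome, differed more in heads than in gonads, with 3.82 and 6.98 TPM in female heads, 36.5 and 55.7 in female bodies and 1.17 and 0.777 in ovaries, against 0.966 and 1.64 TPM in male heads, 16.8 and 34.5 in male bodies and 0.210 and 0.184 in testes. Its direction did not hold in all 6 pairs under each scaling.

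Of the 14 heat shock genes, Hsp26, Hsp27 and Hsp83 were higher in females in all 6 pairs, none was higher in males in all 6, beside 2.95% and 15.8% of all genes, and the directions of these 3 held under each of the 5 scalings. Hsp26 and Hsp27 encode small chaperones that are known to be made in ovaries without heat shock, and Hsp83 encodes the fly Hsp90. Hsp26 was at 148 and 194 TPM in female heads, 615 and 863 in female bodies and 748 and 1068 in ovaries, against 70.7 and 113 TPM in male heads, 94.1 and 170 in male bodies and 131 and 202 in testes. Hsp27 was at 92.1 and 98.5 TPM in female heads, 587 and 705 in female bodies and 759 and 952 in ovaries, against 55.2 and 55.2 TPM in male heads, 118 and 170 in male bodies and 195 and 269 in testes. Hsp83 was at 643 and 639 TPM in female heads, 871 and 2122 in female bodies and 1220 and 2606 in ovaries, against 349 and 457 TPM in male heads, 293 and 629 in male bodies and 346 and 750 in testes. The female library of each pair was higher by 0.48 to 2.70 (log2) over these 3 genes, while the Hsp26 levels of female heads lay within the range of the male bodies and testes and the Hsp27 levels of female heads lay below it. The other 11 heat shock genes, among them the Hsp70 copies, were not shared: Hsp70Aa was at 686 and 676 TPM in female heads and 39.4 and 28.9 in ovaries, against 271 and 348 TPM in male heads and 50.0 and 110 in testes. The Hsp70 copies are near-identical and their reads may be split among them.

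The upstream sequence of Hsp26 is shown because it holds the 2 elements known from its regulation. In the 300 bases before its start (dm6, chr3L:9377428-9377727, minus strand) the capitals mark the letters GAGAGAGA, bound by the GAGA factor and read here on the other strand, and the heat shock element GAANNTTC.
Hsp26 upstream: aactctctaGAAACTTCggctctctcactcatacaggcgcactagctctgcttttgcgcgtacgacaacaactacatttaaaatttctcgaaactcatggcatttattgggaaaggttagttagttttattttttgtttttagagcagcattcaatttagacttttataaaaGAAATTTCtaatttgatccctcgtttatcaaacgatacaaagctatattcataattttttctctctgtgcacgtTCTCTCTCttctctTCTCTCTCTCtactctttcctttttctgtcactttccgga
On either strand, GAGAGAGA was found 3 times, with 2 of the matches overlapping, and GAANNTTC was found 2 times. GAGAGAGA stood in 2.74% of all 12826 windows, in 5.04% of those of the genes higher in females in all 6 pairs and in 4.27% of those of the genes higher in males, and GAANNTTC in 8.90%, 11.67% and 9.37%. The windows of Hsp27 and Hsp83 held neither, which says only that these exact letters are not in those 300 bases.

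Of the 380 genes higher in females, 20 were small nucleolar RNAs, and of the 2039 higher in males 1 was, beside 98 of all 12882 tested. Other noncoding genes with a CR name numbered 21 of the 380 and 121 of the 2039, beside 929 of all tested. The small nucleolar RNAs guide the modification of ribosomal RNA and mostly lie in introns of host genes. snoRNA:Psi28S-1232, inside the ribosomal protein gene RpL17, was at 0.832 and 3.07 TPM in female heads, 1.54 and 3.12 in female bodies and 4.37 and 4.15 in ovaries, against 0.0410 and 0.662 TPM in male heads, 0.192 and 0.410 in male bodies and 0.0900 and 0 in testes. snoRNA:Me28S-G2703a, inside the host gene Uhg5, was at 3.19 and 3.55 TPM in female heads, 9.53 and 7.59 in female bodies and 8.72 and 6.38 in ovaries, against 1.56 and 1.46 TPM in male heads, 0.842 and 0.623 in male bodies and 0.211 and 0.652 in testes. snoRNA:Me28S-A992, from the same host, had 2.42 and 2.86 TPM in female heads against 1.27 and 1.48 TPM in male heads. Reads of these short genes cannot be told apart from those of unspliced host transcripts, and polyadenylated RNA was selected, so that the values do not measure the mature small RNAs alone. CR43482, a noncoding gene near Hsp27, was at 26.1 and 23.8 TPM in female heads and 167 and 184 in ovaries, against 15.1 and 11.8 TPM in male heads and 44.7 and 33.6 in testes, and CR45938, inside ftz-f1, was at 5.80 and 4.44 TPM in female heads and 2.52 and 3.46 in ovaries, against 2.85 and 2.39 TPM in male heads and 0.194 and 0.751 in testes.

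**Figure D4:**
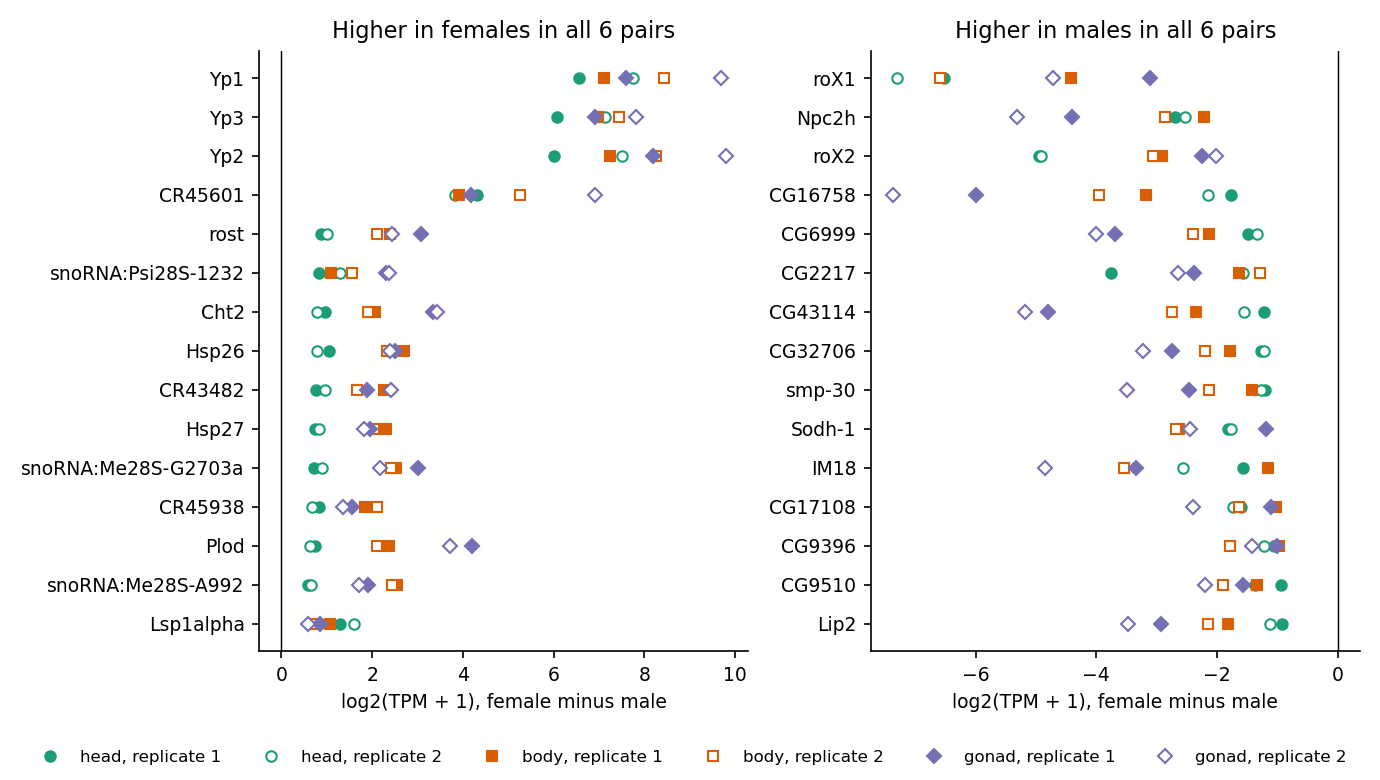
The 6 pair differences (horizontal axis, log2(TPM + 1), female minus male) of the 15 genes in each direction with the largest smallest difference, ordered from the top. Green circles are heads, orange squares bodies and purple diamonds gonads, filled for replicate 1 and open for replicate 2, and no point crosses 0.

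Higher in males in every pair by at least 1 (log2) were 12 genes, of which roX1 and roX2 are described above. Npc2h, of the Niemann-Pick type C family of sterol-binding proteins, was at 4.0 and 13.0 TPM in female heads, 6.58 and 15.6 in female bodies and 0.427 and 0.330 in ovaries, against 31.3 and 80.4 TPM in male heads, 34.3 and 119 in male bodies and 29.1 and 51.7 in testes. CG16758 was at 26.3 and 38.7 TPM in female heads, 18.0 and 17.1 in female bodies and 3.97 and 1.32 in ovaries, against 91.8 and 175 TPM in male heads, 171 and 280 in male bodies and 315 and 383 in testes. For both genes no female library reached a male one. CG6999 and CG32706 are neighbours on the X chromosome (chrX:9088367-9089314 and chrX:9087129-9088073) and had alike levels over the libraries. CG6999 was at 9.47 and 7.58 TPM in female heads, 1.94 and 1.72 in female bodies and 1.36 and 0.750 in ovaries, against 28.2 and 20.6 TPM in male heads, 11.8 and 13.3 in male bodies and 29.4 and 27.0 in testes. CG32706 was at 4.71 and 3.99 TPM in female heads, 1.00 and 0.884 in female bodies and 1.06 and 0.60 in ovaries, against 12.8 and 10.6 TPM in male heads, 5.87 and 7.64 in male bodies and 12.9 and 13.9 in testes. CG43114, which overlaps nompA on 2R, was at 0.163 to 34.9 TPM over the female libraries, against 41.1 to 94.8 TPM over the male libraries.

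Sodh-1, a sorbitol dehydrogenase gene, was at 27.4 and 57.4 TPM in female heads, 22.2 and 53.7 in female bodies and 1.28 and 0.552 in ovaries, against 99.0 and 198 TPM in male heads, 142 and 351 in male bodies and 4.16 and 7.47 in testes. smp-30, of the regucalcin family, was at 10.2 and 26.04 TPM in female heads, 35.6 and 55.5 in female bodies and 0.628 and 0.189 in ovaries, against 24.8 and 64.3 TPM in male heads, 97.2 and 245 in male bodies and 7.93 and 12.3 in testes. The levels of both were low in either gonad, and their groups overlapped across tissues. CG17108 was at 67.5 and 149 TPM in female heads, 32.4 and 88.9 in female bodies and 1.10 and 0.979 in ovaries, against 207 and 495 TPM in male heads, 66.7 and 277 in male bodies and 3.52 and 9.40 in testes. IM18, an immune-induced peptide gene, was at 0.0266 to 2.39 TPM over the female libraries, against 4.46 to 42.0 TPM over the male libraries. CG2217 was at 0.219 to 9.195 TPM in females, against 3.88 to 29.1 TPM in males, and its female head replicates were at 0.637 and 9.195 TPM. Just below a difference of 1 in the weakest pair were Lip2, a lipase gene at 0 to 0.448 TPM in females against 1.65 to 10.1 TPM in males, with CG9510 and CG9396. The directions of CG2217 and CG9396 did not hold in all 6 pairs under each scaling.

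Apart from the yolk protein genes, the most abundant shared genes differed little in heads, between -0.64 for Nplp2 and 0.14 for CG6770 (log2 female minus male, fit by tissue). The 5 most abundant genes higher in females in all 6 pairs were CG6770, Yp1, the ribosomal protein gene RpL13A, Yp2 and the ribosomal protein gene RpS27A. RpL13A was at 909 and 1240 TPM in female heads, 3384 and 4277 in female bodies and 5444 and 4914 in ovaries, against 902 and 1169 TPM in male heads, 879 and 1806 in male bodies and 447 and 662 in testes, and neither RpL13A nor RpS27A nor CG6770 kept its direction in all 6 pairs under each scaling. The most abundant higher in males was Nplp3, a neuropeptide-like precursor gene, at 16119 and 23719 TPM in female heads, 2834 and 4020 in female bodies and 42.1 and 29.4 in ovaries, against 18703 and 24640 TPM in male heads, 5836 and 10652 in male bodies and 117 and 138 in testes. MtnA, a metallothionein gene, was at 767 and 1681 TPM in female heads, 1618 and 2544 in female bodies and 157 and 262 in ovaries, against 991 and 2257 TPM in male heads, 2113 and 6449 in male bodies and 2071 and 4393 in testes. Of these abundant male-higher genes, which also include Nplp2, CG18628 and the accessory gland gene Mst57Db, MtnA alone kept its direction in all 6 pairs under each scaling.

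Few gonad genes had 1 direction in all tissues. All 18 eggshell genes passed as higher in females in bodies and in gonads and none was shared, and 18 of 18 testis germline markers and 16 of 16 accessory gland and ejaculatory duct markers passed as higher in males in gonads, of which 2 and 1 were shared. Of all genes, 37.7% passed as higher in females in bodies and 42.8% in gonads, 33.9% and 36.3% passed as higher in males there, and 2.95% and 15.8% were shared, so that the shared counts of the male markers were not above the share of all genes. In bodies, 17 of the 18 testis markers passed as higher in males, so that body and gonad pairs showed the same gonad markers. The source of these transcripts in bodies was not tested. The testis markers summed to 83.0 and 13.0 TPM in female bodies, against 5429 and 6713 TPM in male bodies, and the eggshell genes to 29846 and 75794 TPM in female bodies, against 156 and 198 TPM in male bodies. All 14 DNA replication genes passed as higher in females in body and gonad, beside 37.7% and 42.8% of all genes, and none was shared. Of 22 ribosomal protein paralogs, RpL22, RpL7, RpS5a and RpS14a were higher in females in all 6 pairs and RpL22-like and RpL37b in males, beside 2.95% and 15.8% of all genes. Of the 9 neuron markers, 6 were higher in males in all 6 pairs, beside 15.8% of all genes, with a median paired difference of -0.49 beside -0.003 for all tested genes, and none passed in heads, where nearly all of their transcripts were found (14795 and 15990 TPM summed in female heads, against 14765 and 16499 TPM in male heads). These sums are weighted to the most abundant markers. The median marker was at 300 and 311 TPM in female heads, against 356 and 403 TPM in male heads. Their median difference in heads was -0.33, beside -0.12 for all tested genes (log2 female minus male). The defining neuron markers were near 0 in the gonads, with 24.6 and 18.2 TPM summed in ovaries against 34.9 and 41.7 TPM in testes.

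Chromosomes contributed unequally. The X chromosome held 2059 of the tested genes (16.0%), 116 of the 380 genes higher in females in all 6 pairs (30.5%) and 228 of the 2039 higher in males (11.2%). Of X-linked genes, 5.63% were in the female set, against 2.45% of the genes of chromosomes 2 and 3, and 11.1% were in the male set, against 16.8%. Where the direction was asked to hold under each scaling the shares were 2.87% and 1.21% for females, and 4.27% and 5.80% for males. Chromosome 4 had 20 of 95 genes in the male set and none in the female set, but none of the 20 held under each scaling. The X-linked share of nuclear TPM was 15.2% and 15.5% in female heads, 16.4% and 17.4% in female bodies and 17.1% and 17.4% in ovaries, against 13.7% and 13.4% in male heads, 10.3% and 12.2% in male bodies and 7.34% and 8.51% in testes. It was higher in females in 6 of 6 pairs, by 5.61 ± 3.36 percentage points (SD, n = 6, exact sign-flip test, two-sided p = 0.03125, the smallest that 6 pairs can give, and 0.0469 adjusted over 3 tests). The yolk protein genes are X-linked and part of this sum. Without them, an alternative added after the values were seen, the share was 13.87% and 13.5% in female heads against 13.64% and 13.35% in male heads, so that the head pairs differed little, while it was 15.37% and 15.95% in female bodies and 16.05% and 16.26% in ovaries, against 10.3% and 12.18% in male bodies and 7.34% and 8.51% in testes. The difference was then 4.28 ± 3.64 percentage points (SD, n = 6, exact sign-flip p = 0.03125). Such a test, like the paired fit, treats the 6 pairs as independent, whereas same-numbered samples of different tissues deviated together and nothing states that they came from separate flies, so that the 6 pairs may rest on 2 sets of flies.

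**Figure D5:**
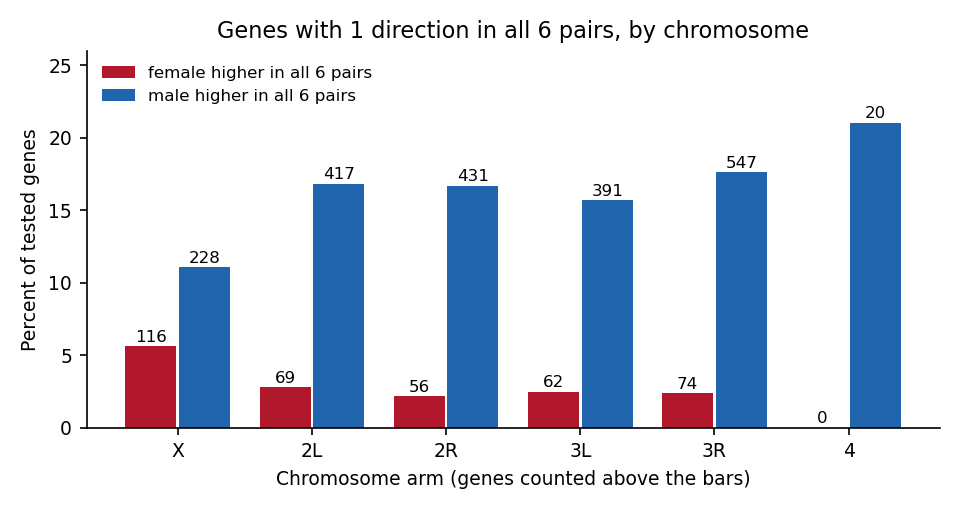
Percent of the tested genes of each chromosome arm (horizontal axis) that were higher in females (red) or in males (blue) in all 6 pairs, with the number of genes above each bar. The X chromosome had the highest female bar (5.63%) and the lowest male bar (11.1%) of the large arms.

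The summed level of Y-linked genes was lower in females in all 6 pairs, at 6.05 and 2.31 TPM in female heads, 42.3 and 31.7 in female bodies and 111 and 51.3 in ovaries, against 7.71 and 3.21 TPM in male heads, 389 and 674 in male bodies and 1170 and 1842 in testes (exact sign-flip test on log2 values, two-sided p = 0.03125, 0.0469 adjusted over 3 tests, n = 6 pairs). Females carry no Y chromosome, and the female sum lay mostly in fdy, a Y-linked gene derived from the autosomal gene vig2 and so alike in sequence that reads may be exchanged. fdy was at 96.1 and 44.1 TPM in ovaries against 25.2 and 33.3 TPM in testes. Without fdy, a sum added after the values were seen, the Y-linked level was 3.0 and 0.817 TPM in female heads against 2.77 and 1.23 TPM in male heads, so that the female library was higher in 1 head pair, and the exact sign-flip p was 0.0625. Of the 24 Y-linked genes tested, 4 were higher in males in all 6 pairs (CG45770, CR45771, CR45772 and Mst77Y-7), each at 0.167 TPM or less in all 4 head libraries.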

How the data were processed

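Polyadenylated RNA of female and male heads, bodies and gonads was sequenced in 2 replicates per group, and the other 25 samples of the series were not analysed here. The TPM and FPKM values were those deposited by the authors, 1 table per library, and depth is unknown because no counts were used here. The submitters' processing notes name STAR 2.6.1a, StringTie 2.0, cutadapt 1.15 and 1.18 and dm6. Strand-specific libraries are stated for the other RNA fractions of the series and not for these.

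Genes with a mean of at least 1 TPM over 12 libraries were kept (12882). limma 3.58.1 in R 4.3.3 was fitted to log2(TPM + 1), with the pair as a block and 1 sex coefficient, or 1 for each tissue, and Benjamini-Hochberg adjustment over all genes. Fold changes are on that scale, which understates changes of low genes. With 1 sex coefficient for each tissue, the error of a gene was still drawn from all tissues together. Both fits were run on simulated data with independent noise in each library. Same-numbered samples of the real data deviated together, so that the simulation does not show how the fits behave on them. Deviations of same-numbered samples from their group means correlated in all 15 pairs of groups (r = 0.345 to 0.769). Whether same-numbered samples shared flies or only their processing was not tested. Replicates of 1 group had a Spearman correlation of 0.944 to 0.970. Sums were compared by exact sign-flip tests.

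The members and gene lists were chosen with earlier results of these data known. Named genes were textbook members of the lists and, among genes that passed the paired fit and had 1 direction in all 6 pairs, those with the largest smallest pair difference (12 per direction), the highest TPM (5) or the most even difference (5). As 3 genes passed, the ranking was applied to all shared genes without the threshold after the values were seen, with 15 in place of 12 genes per direction for the smallest pair difference. Alternatives changed the pseudocount (0.1), the low-value filter (none, or 5 TPM), the scaling, the block and the libraries used. Promoter letters were read from the Release 6 genome, in which 126 of 128 genes matched by identifier had the same start.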

Additional observations from a re-analysis of the deposited data

Results flagged for a closer look

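Of the 52 genes compared, 37 had a sex difference whose size or direction was unequal among head, body and gonad (limma F test with 2 replicate pairs per tissue, adjusted over all genes), beside 73.1% of all tested genes, and 15 did not pass. The numbers in parentheses here are the limma adjusted p of that test. Among protein-coding genes higher in females in all 6 pairs, the difference was smaller in head than in body and gonad for rost (0.00387), Cht2 (0.000337), Plod (0.00026), Hsp26 (0.00168), Hsp27 (0.00229), Hsp83 (0.0187) and tra (0.00379). The same held for snoRNA:Psi28S-1232 (0.0137), snoRNA:Me28S-G2703a (0.00668), snoRNA:Me28S-A992 (0.00145), CR43482 (0.0146), CR45938 (0.0154), RpL13A (0.00203), CG6770 (0.0136) and RpS27A (0.00218).

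Among genes higher in males in all 6 pairs, the difference was largest in gonads for Npc2h (0.00287), CG16758 (0.000756), CG6999 (0.000709), CG32706 (0.0067), CG43114 (0.000216), smp-30 (0.0214), Lip2 (0.00208), CG18628 (0.000288), Mst57Db (0.00139), MtnA (0.000959) and Nplp3 (0.0253). It was smallest in gonads for roX1 (0.0473), roX2 (0.00039), CG45083 (0.000215), sxe2 (0.0288), Cyp4d21 (0.000318) and tobi (0.0284). In ovaries all of these but roX1 were at 0.702 TPM or less. On the log2(TPM + 1) scale their gonad difference therefore mostly follows the testis level. As a share of the male level, female roX2 was at 1.23% and 1.03% in heads and 1.30% and 0% in gonads. The direction or presence of a difference varied by tissue for Sxl (0.000473), fru (0.00121), fit (0.00122), Obp99a (0.000174) and msl-1 (0.000853). Sxl was at -0.12 in heads and 3.33 in gonads, fit at 2.79 and -0.01, and Obp99a at 3.51 and -3.98 (log2 female minus male). No cause of these tissue differences was tested.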

How the results depend on the processing

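The paired fit called 3 genes as higher in females and 0 as higher in males in the main setting. The male count was 2 with a pseudocount of 0.1, 1 with median of ratios and 1 without gonads. The female and male counts were 3216 and 2414 with quantile normalization and 4921 and 4400 without heads. With no replicate block they were 3377 and 3966, in a fit of the average over tissues where unequal tissues are not error. The female count was 0 without bodies and 0 with replicate number 1 or 2 alone, with 197, 161 and 569 genes at an unadjusted p under 0.05. Leaving out 1 pair at a time gave 2 to 3237 genes higher in females and 0 to 3612 higher in males by this fit, with both upper ends reached without head replicate 2. For the direction in all remaining pairs it gave 381 to 912 and 2095 to 2912 genes.

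The count of genes higher in females in all 6 pairs, 380 in TPM, was 1050 in FPKM, 708 with median of ratios, 657 without mitochondrial genes and 1711 with quantile normalization, where the male count was 787. Without heads the counts were 5321 and 4990. With replicate number 1 alone they were 1141 and 3145, with number 2 alone 947 and 3196, and under all 5 scalings together 188 and 708, alternatives chosen after seeing the data. Among the 52 named genes, most of them chosen for having 1 direction in all 6 pairs, the paired difference changed sign for msl-2, at 0.04 with quantile normalization, and for Obp99a, at 0.50 without gonads (log2 female minus male). Of the 380 genes, 52.4% kept their direction in all 6 pairs with median of ratios, and of the 2039 genes 36.7% did with quantile normalization. The Y-linked sum differed by -4.57 (log2) without fdy, with an exact p of 0.0625. The cause of these changes was not tested. Depth is unknown, and values near 0 limit the direction of low genes, chiefly in heads.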
